A study of Mus musculus with 6 samples.

Results

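The elastic fibre and fibrillin genes are a group of 10 listed genes that encode the fibrillins Fbn1 and Fbn2, elastin (Eln), the fibulins Fbln1, Fbln2 and Fbln5, the lysyl oxidases Lox and Loxl1, and the latent TGF-beta binding proteins Ltbp1 and Ltbp2. They were chosen by name, and where several probes carried only that gene's symbol, the brightest on average was to stand for the gene. Beyond choosing the probe, that mean marked the dimmest genes left out in an alternative and is quoted for some marker genes. Of the 10 genes, 9 had such a probe, among 22180 genes in all, and each of the 9 had 1 such probe, so no choice between probes was needed. Fbn1 was not analysed here.

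Mouse heart RNA was hybridised to Affymetrix arrays, with 3 samples of control and 3 of transgenic hearts and an array for each. All mice had a mixed C57BL/6 x 129S6 background and carried Nkx2.5-Cre, a recombinase driven by a gene of cardiac progenitors. Control mice carried Nkx2.5-Cre alone. Transgenic mice also carried R26R-miR302-367, an allele at the Rosa26 locus from which Cre starts expression of the microRNAs of the miR302-367 cluster. No group without Cre was analysed here, so any effect of Cre itself is shared by both groups. The labels give the age as postnatal day 14 in the source name and harvest protocol and as E14 in the age field, and the 2 cannot both hold. Whether each sample came from a separate animal is not stated, so the p-values rest on sample-to-sample spread, part of which may be technical. Whole hearts were used, so fewer cells of a type and less RNA per cell cannot be told apart in any value here.

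Elastic fibres let tissue stretch and recoil. They form when soluble elastin is laid onto a scaffold of fibrillin microfibrils, with fibulins as adaptors, and is then cross-linked by lysyl oxidases. The same microfibrils hold latent TGF-beta through its binding proteins. In the heart these fibres are found in the great vessels, the coronary arteries, the valves and the lining of the chambers, and they are laid down mainly by fibroblasts, smooth muscle cells and valve cells rather than by heart muscle. Fibrillin-2 is best known from developing tissue, while fibrillin-1 remains in the adult.

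The transgene encodes several microRNAs, which find their targets mainly through the seed, bases 2 to 8 from the 5′ end. The mature 3p sequences of the mouse cluster are shown because they are what differs by design between the groups. They are from RefSeq (GRCm38.p6, chromosome 3, plus strand), with the seed in capitals, at chr3:127545275-127545297 for miR-302b, chr3:127545665-127545687 for miR-302d, chr3:127545406-127545427 for miR-302c and chr3:127545779-127545800 for mmu-miR-367-3p. The 3p form of miR-302a is not shown.
mmu-miR-302b-3p: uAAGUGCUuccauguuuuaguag
mmu-miR-302d-3p: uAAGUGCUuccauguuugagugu
mmu-miR-302c-3p: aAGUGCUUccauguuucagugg
mmu-miR-367-3p: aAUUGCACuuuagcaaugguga
The 302b and 302d forms share the seed AAGUGCU, the annotated 302c form has AGUGCUU, and mmu-miR-367-3p has AUUGCAC. As a check of the labels, the array probes of Mir302a, Mir302b, Mir302c, Mir302d and Mir367 separated the groups without overlap, with log2 differences from 2.99 (Mir302b) to 6.61 (Mir302c). Which form of these RNAs the probes detect is not given in the sources used here.

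Pearson's r over all probes was 0.982 to 0.989 within a group and 0.974 to 0.983 between groups. Array medians lay between 5.45 and 5.54 on the log2 scale. The 10 heart muscle markers checked, such as Myh6, Tnnt2 and Ttn, had means over the 6 arrays from 10.37 to 13.49, and 0 of them passed the test between groups (2 had an unadjusted p under 0.05). Over all genes tested, 11.1% passed and 25.4% had an unadjusted p under 0.05. With an intensity trend and robust variance in limma, 1 was higher and 2 were lower. The log2 of their summed linear values was slightly lower in every transgenic sample, at 15.973 to 15.99 against 16.014 to 16.046 in control.

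The fibrillin gene Fbn2 rose 3.41-fold in transgenic hearts, and Fbln1, the gene of fibulin-1, fell by 0.90 on the log2 scale. The other 7 measured genes did not pass the test, with log2 differences from -0.37 for Fbln5 to 0.24 for Ltbp2. Passing means an adjusted p under 0.05 from limma, adjusted over all 22180 genes. So 1 of 9 rose and 1 of 9 fell, against 11.1% of all genes that passed in either direction, 5.35% higher and 5.76% lower. The median log2 difference of the 9 genes was -0.26, against -0.031 over all genes tested. An unadjusted p under 0.05 was found for 7 of the 9, against 25.4% of all genes. In 8 of the 9 genes the groups did not overlap, 6 with every transgenic sample below every control and 2 with every transgenic sample above. Over all genes the groups did not overlap in 30.9%, with 16.7% below and 14.2% above. The genes were listed with earlier results of these data known, so these counts are a description.

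**Figure D1:**
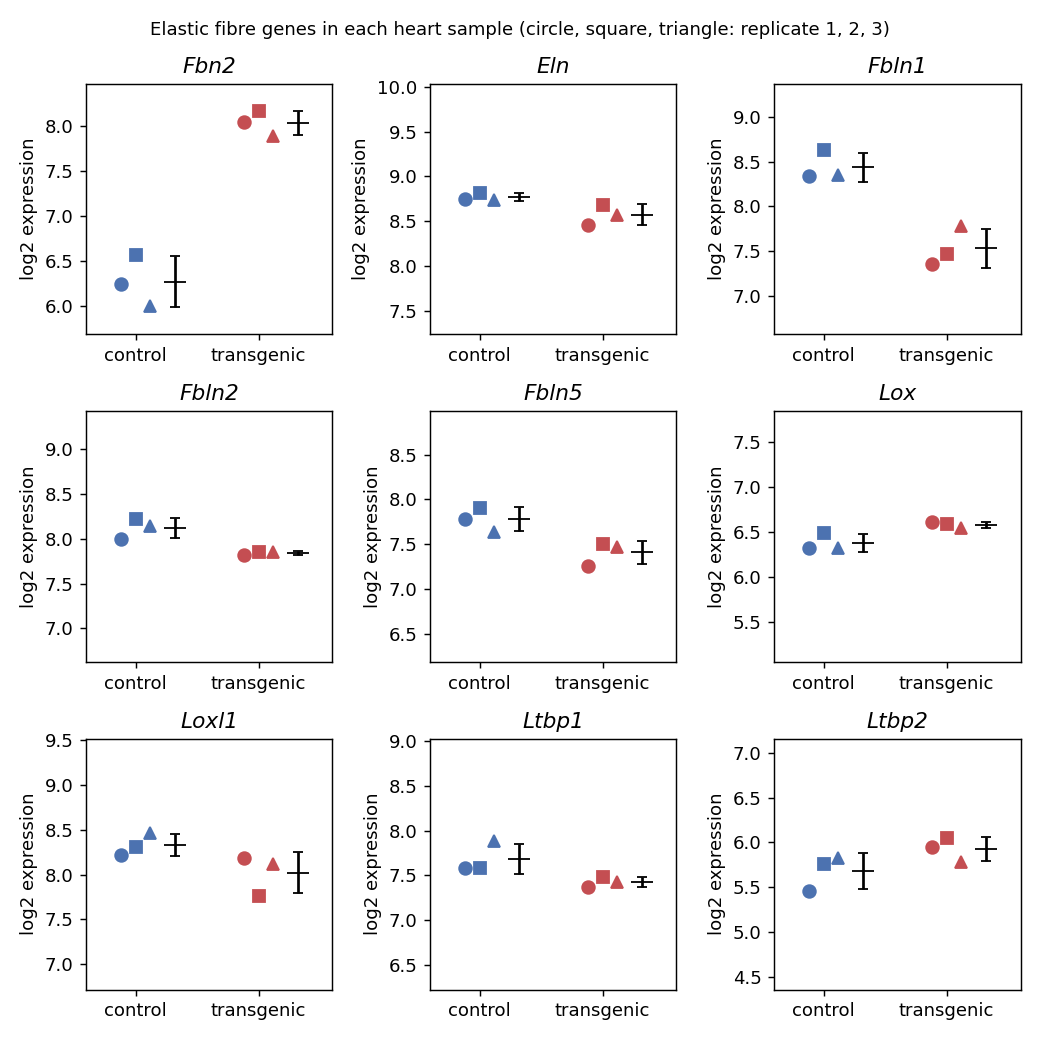
Log2 expression of the 9 measured elastic fibre genes in each heart sample, with the mean and SD of each group (n = 3) at its right. Every panel spans the same height on the log2 scale. Fbn2 lies near 6.26 in control and 8.04 in transgenic samples, Fbln1 goes from 8.44 to 7.53, and the groups overlap in Ltbp2.

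Fbn2 encodes fibrillin-2, a building block of the microfibril. Its probe (17354513) read 6.24, 6.56 and 5.99 in the control hearts on the log2 scale. In the transgenic hearts it read 8.05, 8.17 and 7.89. All 3 transgenic samples lay far above the highest control. The mean went from 6.26 ± 0.28 to 8.04 ± 0.14 (SD, n = 3 each), a log2 difference of 1.77 with an SE of 0.15 and a 95% interval from 1.44 to 2.10 (adjusted p = 0.0003097). A log2 difference at least as high was found in 18 of the 22180 genes (0.0812%), Fbn2 and the 5 microRNA genes of the cluster included. The rise of Fbn2 passed in all 15 alternatives, with a log2 difference from 1.64 to 1.92, and it was the only elastic fibre gene to pass a test against a minimum fold of 1.5.

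Fbln1 encodes fibulin-1, a calcium-binding glycoprotein of elastic fibres and basement membranes that is abundant in valves and vessel walls. Its probe (17313811) read 8.33, 8.63 and 8.35 in the control hearts. The transgenic hearts read 7.36, 7.46 and 7.78. The highest transgenic value, that of replicate 3, stayed below the lowest control. Fbln1 went from 8.44 ± 0.16 to 7.53 ± 0.22 (SD, n = 3 each), a log2 difference of -0.90 with an SE of 0.13 and a 95% interval from -1.20 to -0.61 (adjusted p = 0.003833). A difference as low or lower was found in 166 genes, or 0.748% of those tested. The call held without any single array, and was lost only against a minimum fold of 1.5.

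Fbln5 encodes fibulin-5, which binds elastin and guides it onto microfibrils. Control hearts read 7.79, 7.91 and 7.64, and transgenic hearts 7.26, 7.50 and 7.46. The groups did not overlap, but the gap between the lowest control and the highest transgenic sample was small. The log2 difference was -0.37 with a 95% interval from -0.61 to -0.13, just short of the threshold (adjusted p = 0.05837). It passed in 5 of the 15 alternatives, among them the one without control 3 (adjusted p = 0.04075).

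Fbln2 encodes fibulin-2, which binds fibrillin and elastin and is made in the endocardial cushions and valves. It read 7.9965, 8.22 and 8.14 in control and 7.82, 7.86 and 7.86 in transgenic hearts. The transgenic samples lay close together, below every control. The log2 difference was -0.27 with a 95% interval from -0.48 to -0.07 (adjusted p = 0.08991). All 3 fibulin genes of the list thus had negative differences, of which that of Fbln1 passed. Whether their differences differ from each other was not tested.

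The stretch before the start of transcription is shown for the called fibulin gene, Fbln1, and for Fbln5, the fibulin gene next to the threshold. Each line holds the 250 bases before the most upstream RefSeq start (GRCm38.p6), read 5′ to 3′ on the gene's strand, with matches to the 4 motifs searched in capitals. The Fbln1 stretch is chr15:85205699-85205948 on the plus strand and that of Fbln5 is chr12:101819120-101819369 on the minus strand.
Fbln1: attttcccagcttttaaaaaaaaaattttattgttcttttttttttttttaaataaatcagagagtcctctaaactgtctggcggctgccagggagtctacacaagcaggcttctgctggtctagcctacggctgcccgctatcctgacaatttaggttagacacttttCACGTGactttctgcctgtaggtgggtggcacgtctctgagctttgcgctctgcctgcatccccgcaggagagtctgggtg
Fbln5: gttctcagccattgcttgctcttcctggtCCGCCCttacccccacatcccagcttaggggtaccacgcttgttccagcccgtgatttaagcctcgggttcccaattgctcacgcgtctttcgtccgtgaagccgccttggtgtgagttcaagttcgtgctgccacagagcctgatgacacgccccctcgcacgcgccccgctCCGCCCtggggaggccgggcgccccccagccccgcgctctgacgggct
Motifs were searched as exact letters on both strands, and no match overlapped another. The E box was searched as CACGTG. Fbln1 held 1 such match, whose first base lies at -81 from the start, and 6.02% of all 32851 promoter stretches of the same length held one. For the GC box the letters were GGGCGG. Fbln5 held 2 matches, at -221 and -48, both on the opposite strand, against 32.7% of stretches with at least 1. A TATA box, searched as TATAAA, was in 12.4% of all stretches and in neither fibulin stretch. The same held for the element of TEAD factors, whose letters GGAATG were in 12.6% of all stretches. The GC content was 46.4% for Fbln1 and 65.2% for Fbln5, against a median of 52.4% over all stretches. These matches describe the letters only.

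Eln encodes elastin, the elastic core of the fibre. Control hearts read 8.75, 8.82 and 8.74, close together, and transgenic hearts 8.46, 8.69 and 8.58. All transgenic samples were lower, with transgenic 2 closest to the controls. The log2 difference was -0.20 with a 95% interval from -0.40 to 0.0096 (adjusted p = 0.2182).

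The lysyl oxidases cross-link elastin and collagen. Lox, the founding member, read 6.32, 6.49 and 6.32 in control and 6.61, 6.59 and 6.54 in transgenic hearts. Loxl1, the family member tied most closely to elastin, read 8.22, 8.30 and 8.47 in control and 8.18, 7.77 and 8.12 in transgenic hearts. The 2 enzymes thus lay on opposite sides of zero, each without overlap between groups and neither past the threshold. For Lox the log2 difference was 0.20 (95% interval 0.0024 to 0.40, adjusted p = 0.1915). For Loxl1 it was -0.31 (95% interval -0.59 to -0.018, adjusted p = 0.1702). Transgenic 2 was the lowest Loxl1 sample by a wide margin, and without it the log2 difference was -0.18 (adjusted p = 0.4369).

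The latent TGF-beta binding proteins anchor the growth factor to microfibrils, though Ltbp2 itself does not bind latent TGF-beta and acts with fibrillin. Ltbp1 read 7.59, 7.58 and 7.88 in control and 7.37, 7.49 and 7.42 in transgenic hearts. Ltbp2 read 5.45, 5.76 and 5.83 in control and 5.95, 6.04 and 5.78 in transgenic hearts. Ltbp1 was lower in every transgenic sample, while Ltbp2 was the only gene of the 9 whose groups overlapped. The log2 differences were -0.26 for Ltbp1 (95% interval -0.49 to -0.018, adjusted p = 0.1655) and 0.24 for Ltbp2 (95% interval -0.033 to 0.52, adjusted p = 0.2558). Single arrays moved both values, to -0.16 for Ltbp1 without control 3 and to 0.13 for Ltbp2 without control 1. Ltbp2 also shares a probe with D030025P21Rik, and on that probe the difference was -0.14, of the opposite sign. It cannot be assigned to either gene.

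Microfibril partners, the proteins that decorate or bind fibrillin and elastin, were examined through a list of 30 genes, of which 27 were measured. Of these, 8 fell and 2 rose, with a median log2 difference of -0.21 (over all genes tested, -0.031, with 5.76% lower and 5.35% higher). Against a minimum fold of 1.5, 0 of these 10 calls remained, and in the further lists below, cell type markers included, Itgb6 and Timp1 alone passed. Hmcn1, the gene of hemicentin-1, a large relative of the fibulins, rose from 7.79 ± 0.035 to 8.58 ± 0.13 (SD, n = 3 each), a log2 difference of 0.79 (adjusted p = 0.001487). Vcan, the proteoglycan versican that binds fibrillin and fibulins, rose by 0.41 (adjusted p = 0.02637).

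Among the falls, Mfap5, the microfibril-associated glycoprotein MAGP2, went from 9.60 ± 0.040 to 9.03 ± 0.15 (SD, n = 3 each), a log2 difference of -0.57 (adjusted p = 0.008497). Mfap4, which binds elastin and fibrillin, fell by 0.58 (log2, adjusted p = 0.03884). Transgenic 3 read 8.58 for Mfap4 while the other transgenic samples read 7.99 and 8.08, so the samples differed widely. Vtn, the adhesion protein vitronectin and also on the pericyte list below, fell by 1.18, and Mmrn2, an EMILIN relative of endothelial cells, fell by 0.62. Adamtsl5 fell by 0.52 and Adamtsl4, which promotes fibrillin-1 assembly, fell by 0.43. Efemp1, which encodes fibulin-3, and Adamtsl2, which binds fibrillin and latent TGF-beta binding protein 1, fell by 0.55 and 0.37. The gene of the other microfibril-associated glycoprotein, Mfap2, had a log2 difference of 0.04 (95% interval -0.23 to 0.31), and Emilin1, which sits between elastin and microfibrils, had -0.01 (95% interval -0.23 to 0.21).

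The count of falls among microfibril partners was 5 without control 1, and 4 without control 2, transgenic 1 or transgenic 2. Efemp1 and Adamtsl2 each lost their call without control 1, control 2 or any single transgenic sample (adjusted p up to 0.1399 and 0.1393). Mfap4 lost it without any single control or without transgenic 1 or 2 (up to 0.1352), Adamtsl4 without control 2 or any transgenic sample (up to 0.07848), and Vcan without control 1, control 3, transgenic 1 or transgenic 2 (up to 0.1029). With Vcan lost, the count of rises was 1. Hmcn1, Vtn, Mmrn2, Adamtsl5 and Mfap5 passed without any single array.

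Of 12 measured genes of cross-linking and its support, 2 fell and 0 rose, with a median log2 difference of 0.03. At an unadjusted p under 0.05 there were 3 genes, a share close to the 25.4% of all genes, and the 2 calls stand beside 11.1% of all genes called. Pcolce2, an enhancer of procollagen processing by Bmp1, went from 8.67 ± 0.13 to 7.76 ± 0.14 (SD, n = 3 each), a log2 difference of -0.91 (adjusted p = 0.001487). P4ha1, a collagen prolyl hydroxylase subunit, fell by 0.34, a call lost without control 1, control 2 or any transgenic sample (adjusted p from 0.09179 to 0.1327), which leaves 1 fall. Bmp1, the protease that activates lysyl oxidase, had a log2 difference of 0.16 (adjusted p = 0.2801). The further family members Loxl3 and Loxl4 had -0.19 and -0.21 (adjusted p = 0.2205 and 0.3013).

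Of 17 measured genes of latent TGF-beta storage, release and reception, 3 fell and 0 rose, with a median of -0.15 and 9 genes at an unadjusted p under 0.05 (all genes, 11.1% called and 25.4% at an unadjusted p under 0.05). Itgb6, whose integrin releases TGF-beta from its latent complex in epithelia, read 8.38, 8.40 and 8.51 in control and 6.20, 5.81 and 6.11 in transgenic hearts. The groups were far apart, with a log2 difference of -2.39 (adjusted p = 1.993e-05). Ltbp4, the latent TGF-beta binding protein that also helps fibulin-5 lay down elastin, fell from 9.94 ± 0.091 to 9.38 ± 0.072 (SD, n = 3 each), a log2 difference of -0.56 (adjusted p = 0.005655). Ltbp3 had -0.03 (95% interval -0.28 to 0.23). Of the ligands, Tgfb3 fell by 0.48, while Tgfb1 had -0.05 and Tgfb2 -0.22 (adjusted p = 0.8259 and 0.2071). The Tgfb3 call was lost without any single control or without transgenic 1 or 2 (adjusted p from 0.05247 to 0.1318), and the count of falls was then 2 or 3. The count of rises was 1 without control 2 or control 3.

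Among 16 measured proteases, inhibitors and other genes of elastin breakdown and handling, 1 rose and 0 fell, with a median of 0.0021. The 1 call is a smaller share than the 11.1% of all genes called, and the 5 genes at an unadjusted p under 0.05 are near the 25.4% of all genes. The riser was Timp1, an inhibitor of matrix metalloproteinases, which went from 6.47 ± 0.11 to 7.69 ± 0.14 (SD, n = 3 each), a log2 difference of 1.22 (adjusted p = 0.0003607). Mmp2, a gelatinase that also cuts elastin, had 0.02 (95% interval -0.19 to 0.23). Ctss, an elastin-cutting cathepsin of macrophages, had -0.41 (adjusted p = 0.05061). The count of rises was 2 without transgenic 3, and that of falls was 1 without control 2.

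**Figure D2:**
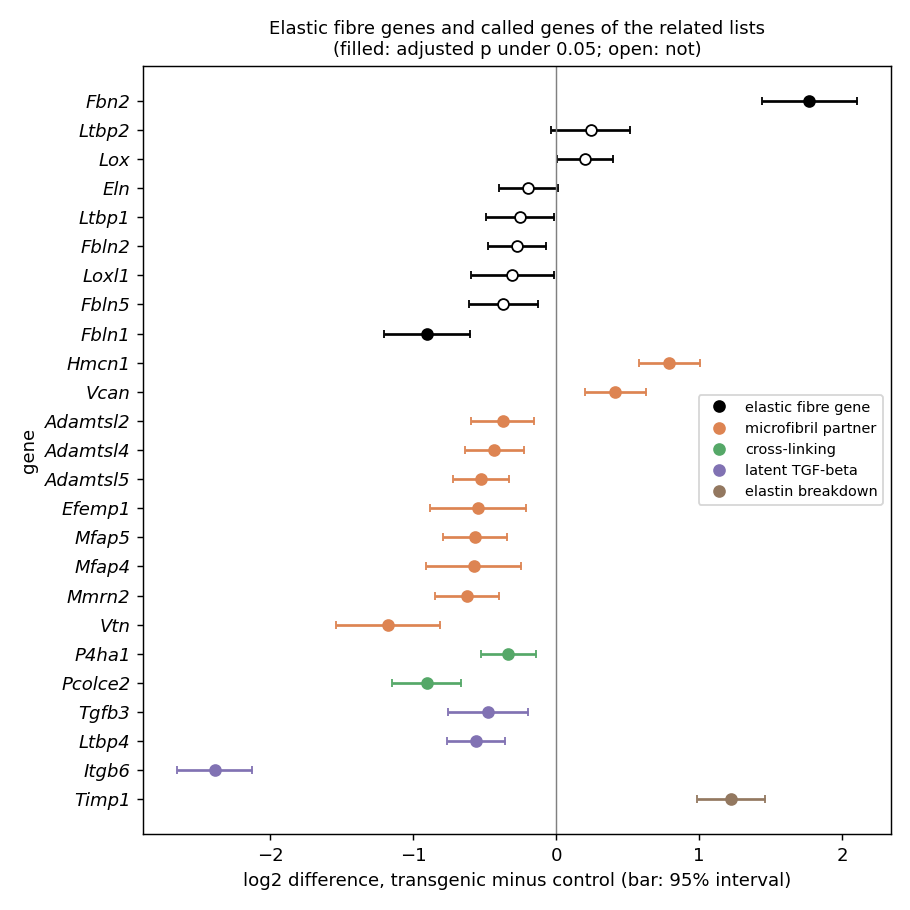
Log2 difference (transgenic minus control) with its 95% interval for the 9 elastic fibre genes and for each gene of the related lists that passed an adjusted p of 0.05, coloured by list. Filled points passed and open points did not. Fbn2, at 1.77, lies above all other elastic fibre genes, whose differences run from -0.90 to 0.24.

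Cell type markers were compared in the same samples, since elastic fibres are known mainly as products of cells other than heart muscle. Which cells of these hearts expressed the genes cannot be told from whole-heart values. Of 20 fibroblast markers, 2 fell and 1 rose, with a median log2 difference of -0.03. Over all genes tested, 5.76% were lower and 5.35% higher, with a median of -0.031. The log2 of their summed linear values lay between 13.436 and 13.664 in control and between 13.459 and 13.545 in transgenic hearts, so the groups overlapped. Pi16, a marker of adventitial fibroblasts, fell by 1.24, and Thy1 fell by 0.48. Pdgfra and Tcf21, which define cardiac fibroblasts, did not pass. Of the 20 markers, 12 had negative and 8 positive differences. Every transgenic sample lay above every control for 5 and below for 4, against 14.2% and 16.7% of all genes. The rise among these markers was Postn, lost without any single one of control 1, control 3 and the 3 transgenic samples, where the count was 0.

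Of 10 smooth muscle markers, 1 rose (Cnn1, by 1.41) and 1 fell (Acta2, by 0.52), with a median of -0.11, and the Acta2 call was lost without transgenic 1 or transgenic 3 (adjusted p = 0.08833 and 0.0701). The counts in this paragraph stand beside 5.35% of all genes higher and 5.76% lower. Their summed level was 12.918 to 13.191 in control and 12.535 to 12.733 in transgenic hearts. It mostly follows Acta2, with a mean over the 6 arrays of 12.457. Smtn, the next brightest, averaged 9.44 in control and 9.67 in transgenic hearts. Of the 10 markers, 7 had negative and 3 positive differences. Of 10 pericyte markers, 6 fell and 0 rose, with a median of -0.45, and the summed level was 13.12 to 13.195 in control and 12.583 to 12.834 in transgenic hearts. The pericyte count was 3 without control 1, transgenic 1 or transgenic 3 and 4 without control 2 or transgenic 2, and 1 marker rose without control 3. Both summed levels were lower in every transgenic sample, and the pericyte level was led by Rgs5 (mean over the 6 arrays 11.811). With the probes of a gene averaged, Rgs5, 1 of the 6 falls, lost its call (log2 difference -0.59, limma adjusted p = 0.07104). The pericyte falls were then 5. Abcc9, the next brightest pericyte marker, had a log2 difference of -0.07.

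Of 12 endothelial markers, 8 fell and 0 rose (median -0.39, summed level 13.139 to 13.212 against 12.73 to 12.86), and the count was 1 without control 1, transgenic 1 or transgenic 2, and 3 without control 2 or transgenic 3. For this and the next lists, the shares over all genes were 5.76% lower and 5.35% higher. Of 10 macrophage markers, 6 fell and 0 rose (median -0.62, 10.591 to 10.795 against 9.9228 to 10.162). Of 10 valve and endocardial markers, 1 rose (Wif1, by 1.08) and 0 fell, and the summed levels overlapped at 10.769 to 11.015 and 10.734 to 10.854, with 1 fall without control 3. Of 10 epicardial markers, 2 rose and 1 fell, with overlapping summed levels of 10.245 to 10.414 and 10.127 to 10.386, and there were fewer calls in all without each single array. The epicardial median was -0.32. Every transgenic sample lay above every control for 4 of these markers and below for 4, against 14.2% and 16.7% of all genes. An unadjusted limma p under 0.05 was found for 9 of them, against 25.4% of all genes. No marker was listed at 0, and the lowest mean over the 6 arrays was 4.66, for the macrophage marker Cd163. The part of cell composition in the elastic fibre results was not tested. The ratios given next cannot decide it, since 3 against 3 samples allow no permutation p under 0.1. The summed fibroblast level differed by only -0.05, so ratios to it stay close to each gene's own difference. That level was led by Dpt (mean over the 6 arrays 11.549, log2 difference -0.01). The next brightest, Mgp and Postn, had log2 differences of -0.30 and 0.33, so opposite changes partly cancel in it.

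**Figure D3:**
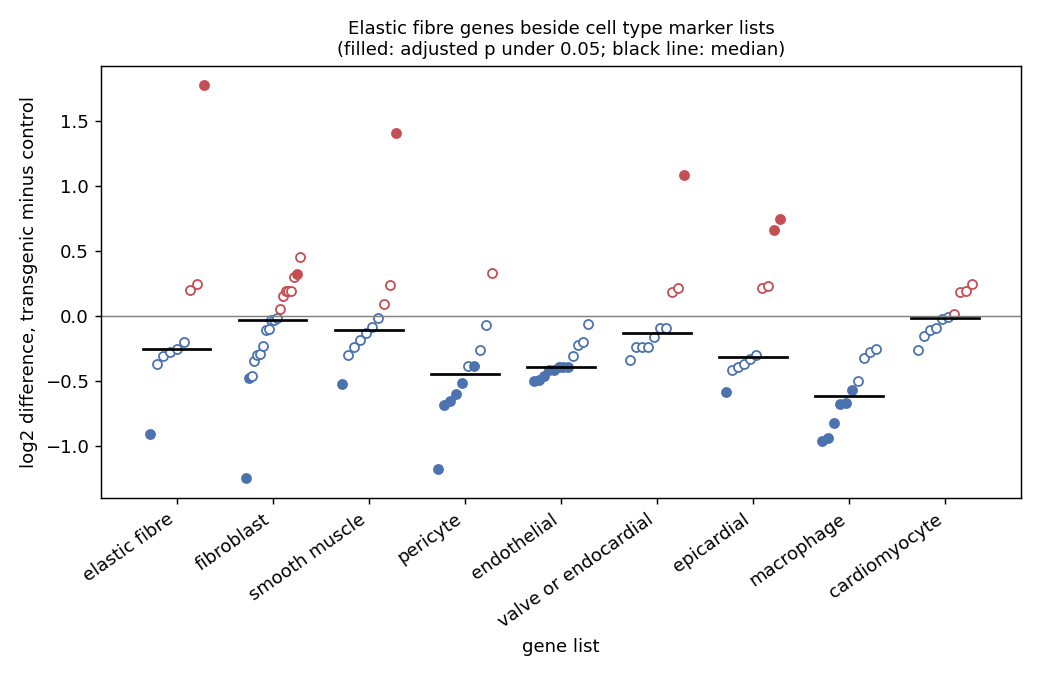
Log2 difference (transgenic minus control) of each measured gene, for the 9 elastic fibre genes and 8 lists of cell type markers, sorted within each list. Filled points passed an adjusted p of 0.05, and the black lines are medians. The medians run from -0.62 for macrophage markers to -0.02 for heart muscle markers, and that of the elastic fibre genes is -0.26.

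Within each array, Fbn2 and Fbln1 were set against the summed level of fibroblast, smooth muscle and pericyte markers. Ratios to the other marker lists, heart muscle included, were not formed. Relative to fibroblast markers, Fbn2 was higher by 1.82 in transgenic hearts and Fbln1 was lower by a log2 difference of -0.86, both without overlap between groups. Relative to pericyte markers the differences were 2.24 and -0.43, again without overlap. Relative to smooth muscle markers they were 2.16 for Fbn2, without overlap, and -0.52 for Fbln1, where the groups overlapped. An exact two-sided permutation test gave p = 0.1 for each of these but the last, the smallest p that 3 against 3 samples allow, and p = 0.2 for Fbln1 against smooth muscle markers. The summed pericyte level was itself lower by a log2 difference of -0.47, which turns any smaller negative difference positive. Against it Eln (0.28), Ltbp1 (0.22), Fbln2 (0.20), Loxl1 (0.17) and Fbln5 (0.10) were all positive, and the groups overlapped for Ltbp1 (exact two-sided permutation p = 0.2), Loxl1 and Fbln5 (p = 0.4 each). The same genes all stayed negative against fibroblast markers: Fbln5 (-0.32), Loxl1 (-0.26), Fbln2 (-0.22), Ltbp1 (-0.21) and Eln (-0.15). There the groups did not overlap for Fbln5 and Fbln2 (exact two-sided permutation p = 0.1 each). Against smooth muscle markers these genes were all positive, from 0.015 for Fbln5 to 0.19 for Eln. That summed level, which mostly follows Acta2, was itself lower by a log2 difference of -0.38, while the median of its markers was -0.11.

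Genes with the pattern most like that of each called gene were found by Pearson correlation of the log2 values over the 6 arrays. These 6 samples fall into the 2 groups, so the correlation mostly reflects the gap between them. Closest to Fbn2 were Atp11a (r = 0.998), a phospholipid flippase, Mir208a (0.998), a microRNA gene inside Myh6, and Aldh7a1 (0.997), an aldehyde dehydrogenase. Closest to Fbln1 were Cavin1 (0.997), a coat protein of caveolae, Ulk1 (0.996), a kinase that starts autophagy, and Islr (0.996), a secreted protein known as a marker of mesenchymal stromal cells. Their log2 differences were 0.70, 1.02 and 0.65 for the first set and -0.41, -0.39 and -0.58 for the second. Each was smaller in size than that of its partner. All 6 passed the test, which their choice by likeness to a called gene made likely.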

How the data were processed

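The deposited file holds log2 expression values, 1 per probe and array, for 41345 probes. Per the submitters' processing notes they were made with tools named as oligo, RMA and limma, versions not stated. Settings of the background correction and the genome build were not given in the sources used here. Gene names came from the platform annotation, with a single symbol on 23521 probes, more than 1 symbol on 1814 and no symbol on 16010. Groups were taken from the sample titles. Per gene the brightest single-symbol probe was kept, and transgenic was compared with control in R 4.3.3 using limma 3.58.1 (functions lmFit and eBayes, two-sided, without covariates or filter), with Benjamini-Hochberg adjustment over 22180 genes and 4 residual degrees of freedom. Precision is limited by the few arrays. The scripts were tested on simulated data. The genes and lists were chosen with earlier results of these data known. From each related list the 8 called genes with the smallest p were named, and up to 3 markers per list. Efemp1, Adamtsl2 and the genes given although they did not pass were chosen after their values were seen. Alternatives left out the dimmest 33.3% of genes, averaged or separately tested probes, renewed quantile normalization, centred arrays, changed the variance model, weighted arrays, used the replicate number as a block, required a minimum fold of 1.5, or left out each array. Of the 10 elastic fibre genes, 6 had a RefSeq promoter entry.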

Additional observations from a re-analysis of the deposited data

How the results depend on the processing

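Over 15 alternatives, 0 of the 135 log2 differences of the elastic fibre genes changed sign and 129 stayed on the same side of the threshold. Many of these signs could not change. The gene filter, probe choice, intensity trend, replicate block and minimum fold left the log2 differences of these genes as they were. Against a minimum fold of 1.5, 90 genes passed in all and 1 elastic fibre gene did, Fbn2, and of the other lists only Itgb6 and Timp1 (adjusted p = 0.0001247 and 0.03058). The calls lost there include Hmcn1, Mfap5 and Ltbp4 (adjusted p = 1 each), Vtn (0.2916), Pcolce2 (0.631) and Cnn1 (0.05172). The counts without 1 array ranged from 1171 to 2249 for all genes (2465 with all arrays) and from 2 to 3 for the elastic fibre genes. For all genes it was 1378 when control 1 was left out, and 1217, 1171 and 1553 when transgenic 1, 2 and 3 were. Fbln5 also passed with the dimmest genes left out (adjusted p = 0.03749), renewed quantile normalization (0.02385), an intensity trend (0.03302) and array weights (0.03222), and its adjusted p over all alternatives ran from 0.02385 to 1. Replicate numbers did not pair the samples, with correlations of the deviations of same-numbered samples of 0.0163, -0.1301 and 0.0138. With the replicate block 1996 genes and 2 elastic fibre genes passed, while Adamtsl2, P4ha1 and Tgfb3 did not (adjusted p = 0.07649, 0.07715 and 0.07198). Testing every probe cost the calls of Adamtsl4, Vcan, Mfap4, Adamtsl2, Efemp1, P4ha1, Tgfb3, Postn and Acta2, and left 3 endothelial, 3 pericyte and 0 epicardial falls, where more tests were adjusted for. No detection calls were used, so how far each probe lies above background is unknown.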
